A study of Mus musculus with 26 samples.

Results

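The genes examined are 10 factors that mark mesoderm and the caudal epiblast of the early mouse embryo. They were taken as the rows T (the brachyury gene), Mixl1, Eomes, Mesp1, Tbx6, Hand1, Foxf1, Kdr, Cdx1 and Cdx2 among the 55291 gene symbols of each counts table. RNA was sequenced from mouse E14 embryonic stem cells (ESCs) and from neural progenitor cells (NPCs) collected on day 2 of differentiation. In the first experiment, both endogenous CTCF alleles carried mAID-eGFP, an inducible degron, in E14 cells that also held a mutant OsTIR1 at 1 Rosa26 allele, an mCherry reporter on both Hb9 alleles and a doxycycline-inducible Flag-Halo CTCF at the Tigre locus. The inducible CTCF was either wild type (WT) or lacked zinc finger 1 (ΔZF1), and cells of both kinds received 1 µM 5-Ph-IAA and 1 µg/ml doxycycline for 24 h. The 4 groups have 2 libraries each, and are named ESC-WT and NPC-WT for wild-type CTCF, ESC-ΔZF1 and NPC-ΔZF1 for the mutant. In the second experiment, parental E14 cells (E14 WT) were compared with lines in which an in-frame eGFP, joined by a self-cleaving peptide and followed by an SV40 polyadenylation signal, truncates Podxl RNA (Podxl pA) or Grb10 RNA (Grb10 pA) on both alleles. These were sequenced as ESCs and as NPCs, with 3 libraries in each of 6 groups.

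Each rescue genotype is represented by 1 clonal line. The number of Podxl pA or Grb10 pA clones sequenced is not stated, so that genotype and clone cannot be told apart in either experiment. ESCs were grown with LIF, the GSK3 inhibitor CHIR99021 and the MEK inhibitor PD0325901, whereas NPCs were made in N2B27 on laminin, so that cell state and medium cannot be told apart either. In bulk RNA, fewer cells of a type and less RNA per cell cannot be told apart.

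During gastrulation, epiblast cells under Nodal, Wnt and BMP signals enter the primitive streak, where the T-box factors T and Eomes and the homeobox factor Mixl1 are induced. Mesp1, Tbx6, Hand1 and Foxf1 then mark cardiac, paraxial and lateral or extraembryonic mesoderm, and Kdr, a receptor for vascular endothelial growth factor, marks the precursors of blood and vessels. Cdx1 and Cdx2 are caudal-type homeobox factors that act upstream of Hox genes in the tail end of the embryo, and several of these genes are known Wnt targets. Eomes, Cdx2 and Hand1 also serve in the trophoblast, the outer lineage of the blastocyst, so that their RNA alone does not name a lineage.

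Libraries of the rescue lines held 6425179 to 28730435 counts on genes, and those of the truncation lines 1907505 to 8845087. Replicates differed by more than sampling noise in each of the 22 pairs within groups, with a chi-square per gene of 1.69 to 63.1, the highest for the NPC-WT libraries. The labelled cell states were checked on markers. The 9 pluripotency markers summed to between 4200 and 6270 CPM (counts per 1000000 counts of the library) in ESC libraries and between 596 and 1020 in NPC libraries, and all 9 were called lower in NPCs in each of the 5 lines. Sox1, the neural progenitor marker, stood at 3.88 to 12.1 CPM in ESC libraries. In NPCs, Sox1 reached 74.1 to 83.8 CPM in E14 WT, 48.9 to 52.4 in Podxl pA, 22.1 to 30.4 in Grb10 pA, 39.2 to 40.4 in NPC-ΔZF1 and 16.8 to 22.0 in NPC-WT. The neural markers Hes5 and Olig2 were at or near 0 in all NPC groups. Of 5 neural markers tested, 2 were called higher in NPCs in the WT rescue line and 3 in each other line. Ncam1 was called lower in Podxl pA (log2 change -0.91) and Grb10 pA (-1.03). In Grb10 pA, 2 of the 5 were called lower, the other being Nes, with a mean of 8.61 CPM in NPCs against 12.7 in ESCs. Mean Pax6 was 1.79 CPM in NPC-WT against 2.25 in ESC-WT, and mean Nes 22.0 in E14 WT NPCs against 23.9 in ESCs. Between 31.8% and 41.9% of all genes were called between NPCs and ESCs of a line. Podxl RNA fell from 232 to 259 CPM in E14 WT NPCs to 20.8 to 24.3 in Podxl pA NPCs, and Grb10 RNA from 769 to 814 CPM to 52.2 to 59.4 in Grb10 pA NPCs. Ctcf counts cannot tell the transgene from the endogenous RNA and stood at 562 to 577 CPM in ESC-WT, 831 to 860 in ESC-ΔZF1, 449 to 474 in NPC-WT and 785 to 798 in NPC-ΔZF1.

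The promoters of 3 members are shown, because Eomes and Cdx2 changed in the mutants and T fell with differentiation. Of the 10 members, 6 (T, Eomes, Mesp1, Tbx6, Kdr and Cdx2) have a promoter in the RefSeq table of build GRCm38.p6. The 250 bases before the RefSeq transcription start are printed from 5′ to 3′ on the strand of the gene. Capitals mark TCAAAG, a core recognised by TCF/LEF factors, and AGGTGT, the core of a T-box element, searched on both strands and not overlapping each other in these windows. The T window is chr17:8434173-8434422 on the plus strand, the Eomes window chr9:118477939-118478188 on the plus strand, and the Cdx2 window chr5:147307250-147307499 on the minus strand.
T: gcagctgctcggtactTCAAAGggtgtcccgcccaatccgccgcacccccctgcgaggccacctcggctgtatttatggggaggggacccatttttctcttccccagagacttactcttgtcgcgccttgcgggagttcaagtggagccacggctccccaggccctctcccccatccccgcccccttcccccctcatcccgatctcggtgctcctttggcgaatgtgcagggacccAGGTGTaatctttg
Eomes: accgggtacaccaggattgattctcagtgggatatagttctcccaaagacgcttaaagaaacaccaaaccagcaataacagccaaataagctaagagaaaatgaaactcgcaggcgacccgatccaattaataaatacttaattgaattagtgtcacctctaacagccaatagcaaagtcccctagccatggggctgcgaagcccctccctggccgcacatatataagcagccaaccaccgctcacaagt
Cdx2: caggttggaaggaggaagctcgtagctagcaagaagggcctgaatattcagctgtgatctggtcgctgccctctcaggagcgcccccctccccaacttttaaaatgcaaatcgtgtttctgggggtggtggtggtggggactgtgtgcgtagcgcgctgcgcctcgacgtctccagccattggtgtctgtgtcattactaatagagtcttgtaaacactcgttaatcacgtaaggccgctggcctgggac

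The T window held 1 TCF/LEF core, beginning 234 bases before the start, and 1 T-box core, beginning 14 bases before it. The Mesp1 window held 2 TCF/LEF cores and 1 T-box core, and those of Eomes, Tbx6, Kdr and Cdx2 held neither. Of all 32851 windows of this length, 13.8% held the TCF/LEF core and 11.8% the T-box core. A match describes letters and is not evidence of binding.

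On GRCm38, with the extents of GENCODE, T lies at chr17:8434423-8442496 on the plus strand, Eomes at chr9:118478212-118486132 (plus) and Tbx6 at chr7:126781483-126785560 (plus). Mixl1 lies at chr1:180693043-180697034 (minus) and Mesp1 at chr7:79792241-79793788 (minus). Hand1 is at chr11:57828705-57832818 (minus), Foxf1 at chr8:121084386-121088144 (plus) and Kdr at chr5:75932827-75978458 (minus). Cdx1 is at chr18:61018862-61036199 (minus) and Cdx2 at chr5:147300805-147307270 (minus). Counts are sums over the exons of each gene.

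Levels between genes were compared as CPM per kb of merged exons. In ESC-WT, Cdx1 stood far above the other members at 29.1 ± 1.29 CPM per kb (SD, n = 2), followed by Eomes at 2.74 ± 0.125. Cdx2 (1.19 ± 0.331), T (0.865 ± 0.290), Hand1 (0.721 ± 0.604) and Mixl1 (0.689 ± 0.0315) came next, and the libraries of each overlapped those of its neighbour. Tbx6 and Kdr overlapped each other at 0.296 ± 0.0607 and 0.277 ± 0.0572, and Foxf1 and Mesp1 were below 0.1 CPM per kb. In NPC-WT the order was Hand1 (20.4 ± 3.21), Cdx2 (9.72 ± 1.31), Cdx1 (5.85 ± 2.35), Eomes (1.54 ± 0.166), Foxf1 (1.02 ± 0.0399) and Tbx6 (0.674 ± 0.0770), with no overlap between neighbours. Kdr (0.435 ± 0.0845) and Mixl1 (0.418 ± 0.0616) overlapped, T stood at 0.175 ± 0.0374, and Mesp1 had 0 counts in both libraries, which allows up to 0.0851 CPM over the group. In E14 WT ESCs, Cdx1 again led at 151 ± 16.9 CPM per kb (n = 3), ahead of Eomes at 8.28 ± 0.918, T at 1.60 ± 0.252 and Cdx2 at 1.03 ± 0.289. In E14 WT NPCs, Eomes led at 7.93 ± 0.303, ahead of Cdx2 at 4.40 ± 0.819 and Hand1 at 2.96 ± 0.644, and from Cdx1 (1.09 ± 0.786) downward the libraries of each gene overlapped those of the next. The tables of the rescue and truncation lines were normalized separately, so levels are compared within each.

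**Figure D1:**
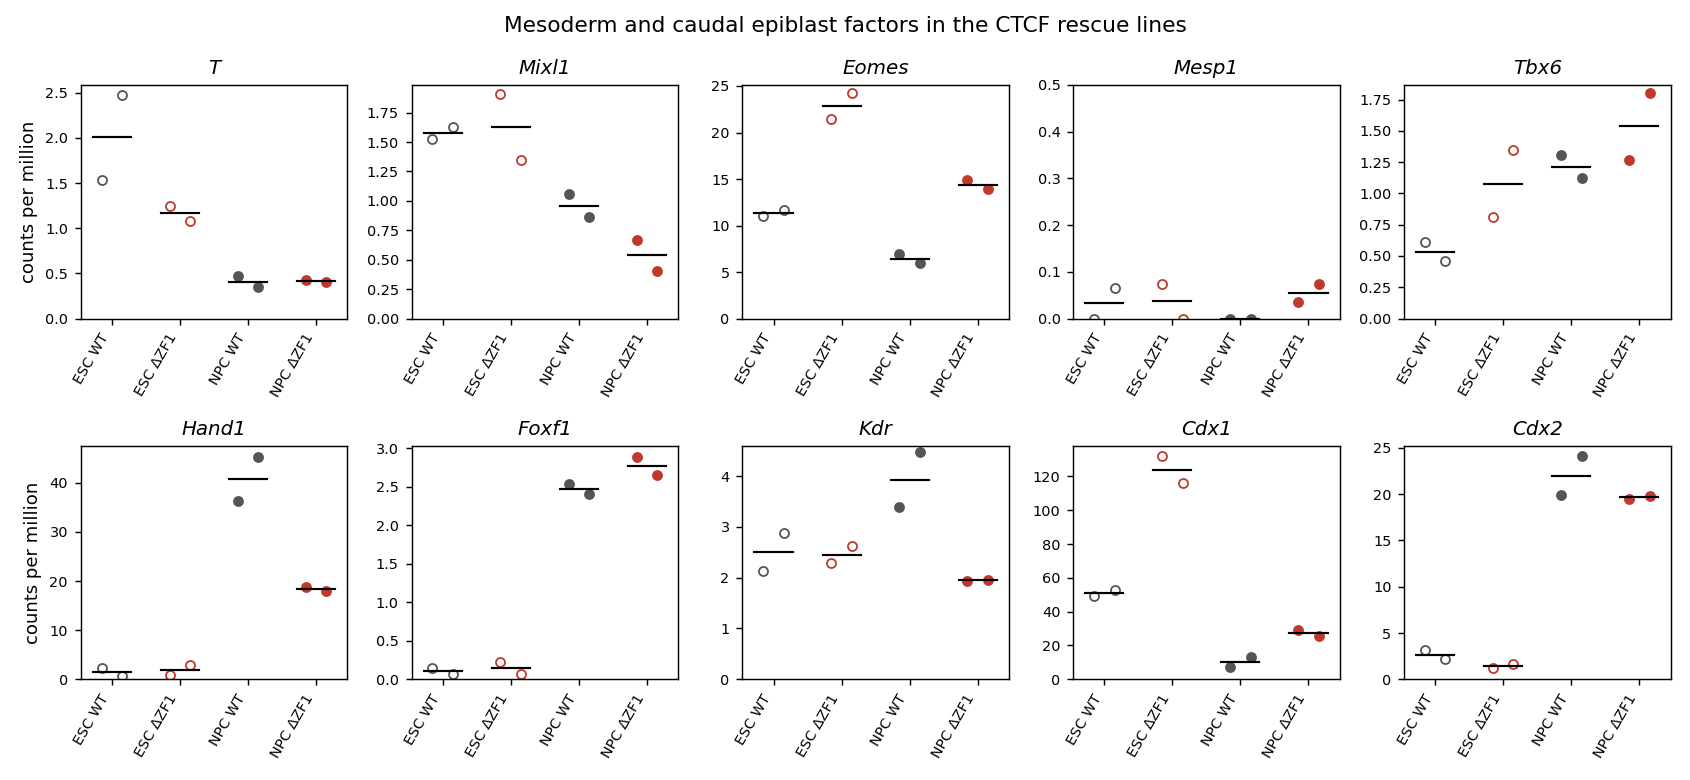
CPM of the 10 members in each library of the CTCF rescue lines, with 1 linear axis per gene starting at 0. Points are libraries (open, ESC; filled, NPC; grey, WT; red, ΔZF1) and bars are group means of 2. Eomes and Cdx1 lie higher in ΔZF1 than in WT in both cell states, and Hand1, Foxf1 and Cdx2 lie high in NPCs only.

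**Figure D2:**
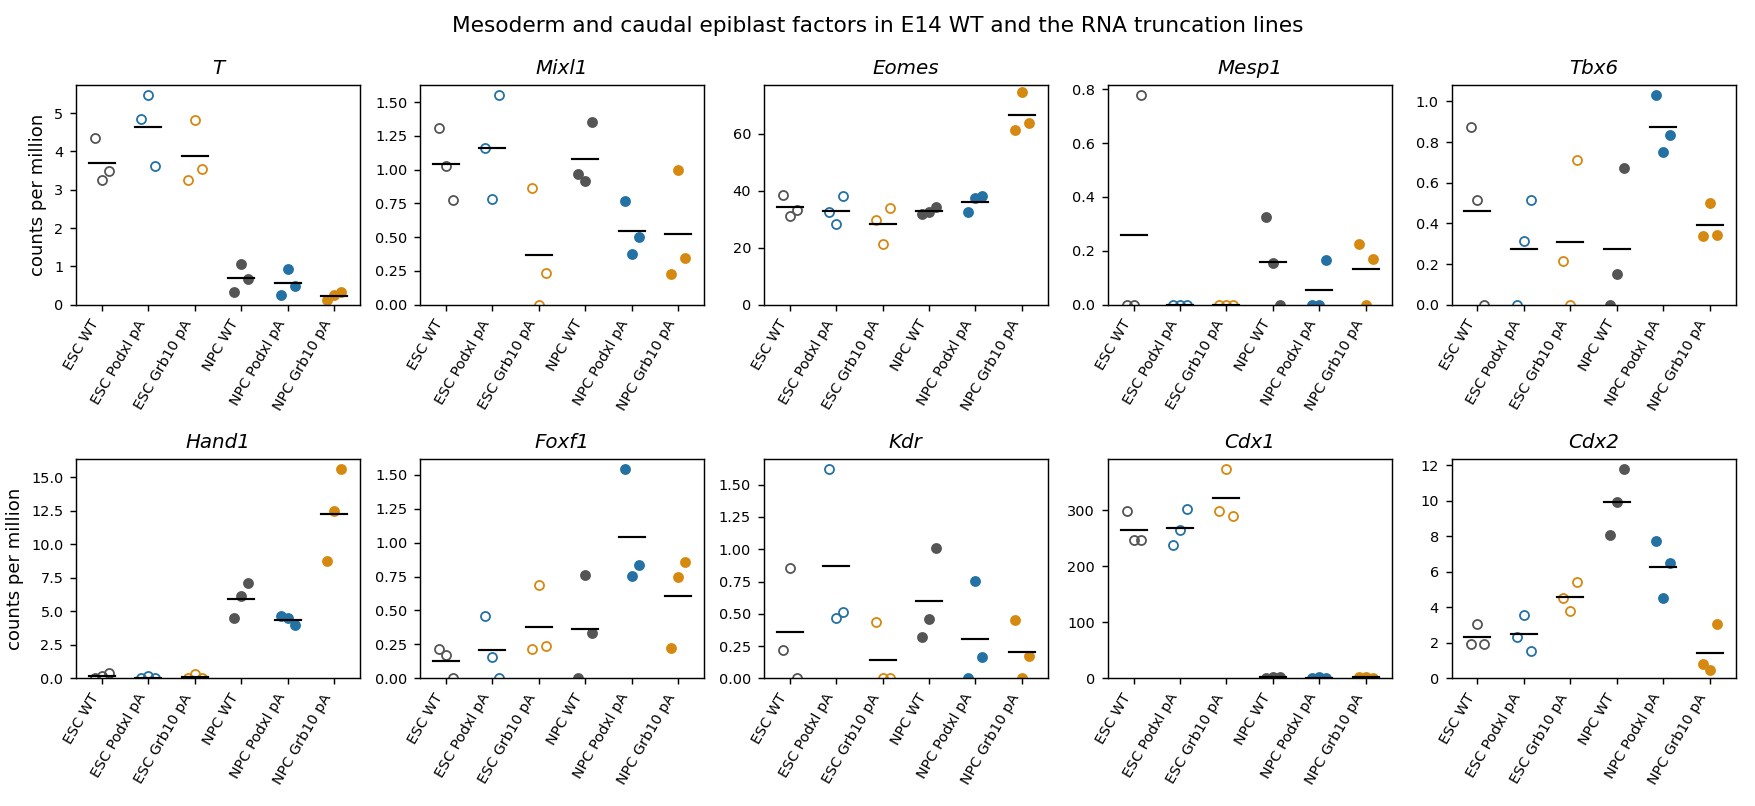
CPM of the 10 members in each library of E14 WT and the RNA truncation lines, with 1 linear axis per gene starting at 0. Points are libraries (open, ESC; filled, NPC; grey, E14 WT; blue, Podxl pA; orange, Grb10 pA) and bars are group means of 3. Eomes and Hand1 lie highest and Cdx2 lowest among the NPC groups in Grb10 pA.

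The change from ESC to NPC was examined within each line. T, which drives streak and mesoderm formation, fell in all 5 lines, Cdx1 fell in all 5, and Hand1, a factor of extraembryonic and lateral mesoderm, rose in all 5. Cdx2 rose in 4 lines and fell in Grb10 pA. In edgeR's quasi-likelihood test with Benjamini-Hochberg adjustment over all genes, where a call needs an adjusted p no higher than 0.05 and a log2 fold change of 0.5 or more in either direction, 6 of 9 members tested were called between NPC-WT and ESC-WT, beside 41.9% of all genes. Between NPC-ΔZF1 and ESC-ΔZF1, 7 of 9 were called, beside 37.3% of genes. In the truncation table only T, Eomes, Hand1, Cdx1 and Cdx2 passed the filter on low counts. Of these 5, 4 were called in E14 WT (32.8% of genes), 4 in Podxl pA (31.8%) and 5 in Grb10 pA (34.6%).

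T stood at 1.53 and 2.48 CPM in ESC-WT and at 0.466 and 0.344 in NPC-WT. The groups did not overlap, and T fell by 2.30 on the log2 scale (SE 0.44, edgeR adjusted p = 0.00179). In ESC-ΔZF1, T was at 1.25 and 1.08 CPM, and in NPC-ΔZF1 at 0.423 and 0.405, a fall by 1.47 (SE 0.42, edgeR adjusted p = 0.0175). Both calls rest on few reads: that of WT was lost without ESC-WT replicate 2 (log2 change -1.84, edgeR adjusted p = 0.0565), and that of ΔZF1 without any 1 of its 4 libraries (edgeR adjusted p between 0.058 and 0.106) and with DESeq2 (adjusted p = 0.0541). In the truncation lines, T stood at 4.36, 3.25 and 3.49 CPM in E14 WT ESCs and at 0.324, 1.07 and 0.674 in E14 WT NPCs, again with no overlap. T fell by 2.20 in E14 WT (SE 0.43, edgeR adjusted p = 0.00014; the change was -2.82 without NPC replicate 2), and the log2 change was -2.99 in Podxl pA (SE 0.41, edgeR adjusted p = 1.11e-06) and -3.98 in Grb10 pA (SE 0.51, edgeR adjusted p = 2.55e-07).

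Eomes, a T-box factor of mesoderm, definitive endoderm and trophoblast, fell in both rescue lines, rose in Grb10 pA and was not called in E14 WT or Podxl pA. It stood at 11 and 11.7 CPM in ESC-WT and at 6.91 and 5.93 in NPC-WT, a fall by 0.82 (SE 0.17, edgeR adjusted p = 0.00266). In ΔZF1 it was at 21.5 and 24.2 CPM in ESCs and 14.9 and 13.9 in NPCs, a fall by 0.66 (SE 0.14, edgeR adjusted p = 0.00415) that lost its call without NPC-ΔZF1 replicate 2 (log2 change -0.61, edgeR adjusted p = 0.0612). The libraries of ESCs and NPCs overlapped in E14 WT (31.2 to 38.6 and 32.0 to 34.4 CPM) and in Podxl pA (28.4 to 38.1 and 32.4 to 38.3 CPM). In Grb10 pA it stood at 29.6, 21.4 and 33.9 CPM in ESCs and at 61.5, 74.5 and 63.8 in NPCs, and rose by 1.2 (SE 0.13, edgeR adjusted p = 2.39e-08).

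Tbx6, which sets paraxial mesoderm apart from neural tissue, was low throughout, with 4 and 7 counts in the ESC-WT libraries and 31 and 13 in those of NPC-WT. Its log2 change of 1.27 (SE 0.50) had an edgeR adjusted p of 0.0585. Mixl1 stood at 1.91 and 1.35 CPM in ESC-ΔZF1 and at 0.670 and 0.405 in NPC-ΔZF1, a fall by 1.58 (SE 0.40, edgeR adjusted p = 0.00926). This call was lost without ESC-ΔZF1 replicate 1 (log2 change -1.33, edgeR adjusted p = 0.0881) or without NPC-ΔZF1 replicate 2 (log2 change -1.26, edgeR adjusted p = 0.0848). In NPC-WT and ESC-WT Mixl1 was at 1.06 and 0.859 CPM against 1.53 and 1.63, which did not pass the test (edgeR adjusted p = 0.19). Over a group of truncation lines, Mixl1 had between 5 and 14 counts and Tbx6 between 3 and 13, and neither was tested there. Mesp1, the factor at the head of the cardiac program, had between 0 and 3 counts over each group and was tested in neither table. A group of 0 counts allowed up to 0.237 CPM in Podxl pA ESCs and 0.256 CPM in Grb10 pA ESCs.

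The lateral and extraembryonic mesoderm factors Hand1 and Foxf1 rose from few or no counts. Hand1 stood at 2.29 and 0.587 CPM in ESC-WT and at 36.2 and 45.3 in NPC-WT, a rise by 5.14 (SE 0.48, edgeR adjusted p = 1.89e-05). In ΔZF1 it rose by 3.22 (SE 0.41, edgeR adjusted p = 0.000157), from 0.881 and 2.97 CPM to 18.7 and 17.9. The ESC replicates were far apart, so that the rise was 6.09 or 4.14 without ESC-WT replicate 1 or 2, and 2.60 or 4.32 without ESC-ΔZF1 replicate 1 or 2. Over the 3 ESC libraries of a truncation group, Hand1 had 1 or 2 counts in all. The ratio of NPCs to ESCs, with its exact 95% counting interval, was 38.7 (10.3 to 325) in E14 WT, 55 (9.53 to 2200) in Podxl pA and 137 (24.4 to 5440) in Grb10 pA. Foxf1 had 2 counts over ESC-WT and 88 over NPC-WT, a ratio of 27.3 (7.34 to 229), and rose by 4.23 on the log2 scale in ΔZF1 (SE 0.47, edgeR adjusted p = 5.86e-05), from 0.220 and 0.0675 CPM to 2.89 and 2.65. For Foxf1 the rise in ΔZF1 was 5.21 or 3.57 without ESC-ΔZF1 replicate 1 or 2. In the truncation lines it had between 2 and 15 counts over a group and was not tested. Kdr stood at 2.14 and 2.87 CPM in ESC-WT and at 3.39 and 4.47 in NPC-WT, which did not pass the test (edgeR adjusted p = 0.114), and it had between 2 and 11 counts over each group of truncation lines.

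The 2 caudal factors moved in opposite directions in every line but Grb10 pA. Cdx1 stood at 49.4 and 52.6 CPM in ESC-WT and at 7.33 and 13.1 in NPC-WT, a fall by 2.37 (SE 0.23, edgeR adjusted p = 2.27e-05). In ΔZF1 it fell by 2.18 (SE 0.21, edgeR adjusted p = 1.85e-05), from 132 and 116 CPM to 29.0 and 25.6. The fitted change was larger in the truncation table, where E14 WT went from 298, 247 and 247 CPM to 0.647, 1.68 and 3.37, a log2 change of -7.15 (SE 0.21, edgeR adjusted p = 6.59e-20). The 2 tables were fitted separately, and the difference between them was not tested. The log2 changes in Podxl pA and Grb10 pA were -7.50 (SE 0.21) and -7.18 (SE 0.19). Cdx2 rose by 3.11 in WT (SE 0.23, edgeR adjusted p = 4.83e-06), from 3.21 and 2.15 CPM to 19.9 and 24.1, and by 3.77 in ΔZF1 (SE 0.24, edgeR adjusted p = 1.40e-06), from 1.17 and 1.69 CPM to 19.5 and 19.8. In E14 WT it rose by 2.01 (SE 0.36, edgeR adjusted p = 4.14e-05), from 1.96, 3.08 and 1.94 CPM to 8.09, 9.93 and 11.8. In Podxl pA it rose by 1.13 (SE 0.37, edgeR adjusted p = 0.0133), a call lost without ESC replicate 1 (log2 change 1.01, edgeR adjusted p = 0.0596) or NPC replicate 1 (log2 change 0.99, edgeR adjusted p = 0.0534). In Grb10 pA it fell by 1.67 (SE 0.42, edgeR adjusted p = 0.00171), from 4.54, 3.80 and 5.45 CPM to 0.788, 0.498 and 3.08, and without NPC replicate 3 the change was -2.70.

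Between the ΔZF1 and WT rescue lines, the same 2 members, Eomes and Cdx1, were called higher in ESCs and in NPCs. Hand1 and Kdr were called lower in NPCs. The ESC calls and those of Hand1 and Kdr were lost in alternatives given below. In ESCs, 2 of 9 members tested were called, both higher, beside 3.61% of all genes. In NPCs, 4 of 9 were called, beside 17.6% of genes, and the median log2 change of the 9 was -0.02 against 0.00 over all genes tested. The streak factors T and Mixl1 were not called in either cell state, nor were Tbx6, Foxf1 and Cdx2.

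Eomes stood at 21.5 and 24.2 CPM in ESC-ΔZF1 against 11 and 11.7 in ESC-WT, with no overlap. It rose by 1.00 in ESCs (SE 0.16, edgeR adjusted p = 0.0144), and by 1.15 in NPCs (SE 0.16, edgeR adjusted p = 0.00116), where the values were 14.9 and 13.9 CPM against 6.91 and 5.93. Reads of the antisense gene Gm33460, which shares 118 exon bases with Eomes, cannot be told apart from it without strand. Cdx1 stood at 132 and 116 CPM in ESC-ΔZF1 against 49.4 and 52.6 in ESC-WT, and at 29.0 and 25.6 CPM in NPC-ΔZF1 against 7.33 and 13.1 in NPC-WT. It rose by 1.28 in ESCs (SE 0.20, edgeR adjusted p = 0.0154) and by 1.46 in NPCs (SE 0.22, edgeR adjusted p = 0.00194), and the groups did not overlap in either cell state. Both ESC calls were lost without any 1 of the 4 ESC libraries (log2 changes between 0.95 and 1.09 for Eomes and between 1.19 and 1.40 for Cdx1, edgeR adjusted p between 0.113 and 0.187), and neither NPC call was lost in this way.

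The other members did not pass the test in ESCs. Cdx2 stood at 1.17 and 1.69 CPM in ESC-ΔZF1 against 3.21 and 2.15 in ESC-WT, a log2 difference of -0.81 (SE 0.31) with no overlap but an edgeR adjusted p of 0.196. T stood at 1.25 and 1.08 CPM against 1.53 and 2.48, a log2 difference of -0.85 (SE 0.39, edgeR adjusted p = 0.285), also with no overlap. With 2 libraries per group, non-overlap says little. In NPCs it was also seen at fitted folds of 1.12 for Foxf1 and 0.901 for Cdx2. Its share over all genes was not counted. Tbx6 was at 0.808 and 1.35 CPM against 0.611 and 0.457, a log2 difference of 1.09 (SE 0.52, edgeR adjusted p = 0.311). The libraries of Mixl1, Hand1, Foxf1 and Kdr overlapped between the genotypes. In NPCs, Mixl1 stood at 0.670 and 0.405 CPM in ΔZF1 against 1.06 and 0.859 in WT, a log2 difference of -0.85 (SE 0.42, edgeR adjusted p = 0.17). Cdx2 in NPCs was at 19.5 and 19.8 CPM against 19.9 and 24.1, a log2 difference of -0.15 (SE 0.17). T, Tbx6 and Foxf1 differed by -0.02, 0.31 and 0.16 on the log2 scale.

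Hand1 was lower in NPC-ΔZF1, at 18.7 and 17.9 CPM against 36.2 and 45.3 in NPC-WT, by 1.15 on the log2 scale (SE 0.31, edgeR adjusted p = 0.0289). Chromosome 11, on which Hand1 lies, had a median log2 change of -0.566 over 1322 genes in the same comparison, and of -0.457 in ESCs. With the medians of the chromosomes taken into the offsets, the Hand1 change was -0.59 and no longer called (edgeR adjusted p = 0.224), and DESeq2 did not call it either (adjusted p = 0.298). Kdr stood at 1.94 and 1.95 CPM in NPC-ΔZF1 against 3.39 and 4.47 in NPC-WT, a fall by 0.99 (SE 0.25, edgeR adjusted p = 0.022). The Kdr call was lost when only the groups compared were fitted (edgeR adjusted p = 0.0745), and the Hand1 and Kdr calls were both lost without either NPC-ΔZF1 library (edgeR adjusted p between 0.135 and 0.193). In ESCs, Kdr overlapped between ΔZF1 and WT, at 2.28 and 2.63 CPM against 2.14 and 2.87.

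The ΔZF1 effect in NPCs minus that in ESCs was tested in the same fit, which called 0 of 9 members and 2.7% of all genes. The unadjusted p was under 0.05 for 2 members, Hand1 (log2 difference -1.92, SE 0.71, edgeR adjusted p = 0.189) and Kdr (log2 difference -0.91, SE 0.39, edgeR adjusted p = 0.248), and DESeq2 called 0. The difference was 0.15 for Eomes (SE 0.22) and 0.19 for Cdx1 (SE 0.30). Without NPC-WT replicate 1 the test called Hand1 (log2 difference -2.13, edgeR adjusted p = 6.7e-05) and Kdr (log2 difference -1.11, edgeR adjusted p = 0.0431). Without NPC-WT replicate 2 it called Hand1 (log2 difference -1.84, edgeR adjusted p = 0.00361) and Cdx1 (log2 difference 0.59, edgeR adjusted p = 0.00546).

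**Figure D3:**
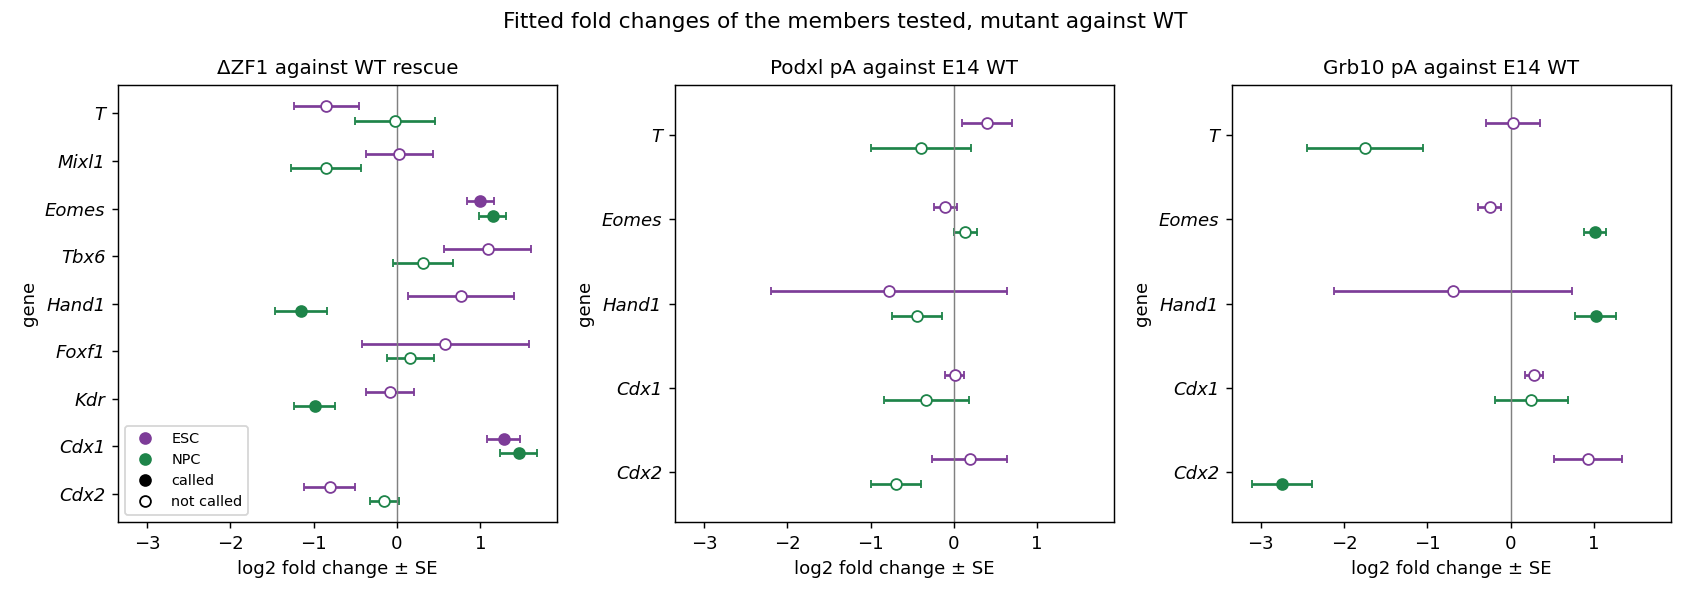
Log2 fold changes of the members tested, mutant against WT, with standard errors, in ESCs (purple) and NPCs (green). Filled points passed both thresholds for a call. Eomes and Cdx1 are right of 0 in both cell states under ΔZF1, no member is called in Podxl pA, and Cdx2 in Grb10 pA NPCs has the lowest value, -2.75.

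Truncation of Podxl RNA left the members tested without a call. In ESCs, edgeR called 0 of 5, with 0 at an unadjusted p under 0.05, beside 0.339% of all genes. In NPCs it called 0 of 5, with 1 at an unadjusted p under 0.05, beside 0.55% of genes, and DESeq2 called 0 in both. That 1 was Cdx2, at 7.71, 4.52 and 6.50 CPM against 8.09, 9.93 and 11.8 in E14 WT NPCs, a log2 difference of -0.69 (SE 0.30, edgeR adjusted p = 0.41). Cdx2 libraries did not overlap between these groups. In the same comparison, Hand1 stood at 4.63, 4.52 and 4.0 CPM against 4.53, 6.11 and 7.08, and Eomes at 32.4, 37.3 and 38.3 CPM against 32.0, 32.4 and 34.4. Both overlapped with E14 WT, as did T and Cdx1. The difference between the Podxl pA effects in NPCs and ESCs called 0 of 5 members, with 0 at an unadjusted p under 0.05 and 0 by DESeq2, beside 0.098% of genes.

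Between Grb10 pA and E14 WT, the ESC values were without a call and 3 members were called in NPCs. In ESCs, 0 of 5 were called by edgeR or DESeq2, beside 9.09% of all genes, and 2 had an unadjusted p under 0.05. These were Cdx1 (log2 difference 0.28, SE 0.11, edgeR adjusted p = 0.0984) and Cdx2 (log2 difference 0.93, SE 0.41, edgeR adjusted p = 0.13). In NPCs, Eomes and Hand1 were called higher and Cdx2 lower, 3 of 5, beside 16.5% of genes. Both truncation lines were compared with the same E14 WT libraries. In Grb10 pA, the 730 genes of chromosome 8 had a median log2 change of -0.488 in ESCs and -0.482 in NPCs, and Ctcf, which lies there, stood at 134 to 157 CPM against 229 to 233 in ESCs and at 155 to 161 against 211 to 218 in NPCs. Of the members, Foxf1, which was not tested here, lies on chromosome 8. With chromosome medians in the offsets, the changes of the 3 members called in NPCs were 0.99 for Eomes, 0.99 for Hand1 and -2.77 for Cdx2, all still called.

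Eomes stood at 61.5, 74.5 and 63.8 CPM in Grb10 pA NPCs against 32.0, 32.4 and 34.4 in E14 WT NPCs, a rise by 1.01 (SE 0.13, edgeR adjusted p = 2.03e-06). Hand1 stood at 8.78, 12.5 and 15.6 CPM against 4.53, 6.11 and 7.08, a rise by 1.02 (SE 0.25, edgeR adjusted p = 0.00368). Cdx2 stood at 0.788, 0.498 and 3.08 CPM against 8.09, 9.93 and 11.8, a fall by 2.75 (SE 0.36, edgeR adjusted p = 2.85e-06). None of these groups overlapped, but the share of all genes without overlap was not counted. For Cdx2, replicate 3 of Grb10 pA lay well above the other libraries of its group. Without it, the Cdx2 change was -3.79 (edgeR adjusted p = 2.56e-07). T had 1, 1 and 2 counts in the Grb10 pA NPC libraries against 1, 7 and 2 in E14 WT NPCs, and its log2 difference of -1.75 (SE 0.70) had an edgeR adjusted p of 0.0639. Without replicate 1 of E14 WT NPCs it passed the test (log2 difference -2.01, edgeR adjusted p = 0.0448). Cdx1 overlapped between the groups, at 1.2 to 2.7 CPM against 0.647 to 3.37.

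The test of the difference itself, NPC effect minus ESC effect of Grb10 pA, called Eomes and Cdx2, 2 of 5 members, beside 5.9% of genes. The log2 difference was 1.26 for Eomes (SE 0.20, edgeR adjusted p = 0.000215) and -3.68 for Cdx2 (SE 0.55, edgeR adjusted p = 0.000157), which was -4.71 without replicate 3 of Grb10 pA NPCs. For Hand1 it was 1.71 with an SE of 1.61, as the ESC libraries held 1 or 2 counts over a group, and for T it was -1.78 (SE 0.77, edgeR adjusted p = 0.168).

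Other genes of the same programs were counted in lists chosen, like the members, with earlier results of these data known. In NPC-ΔZF1 against NPC-WT, 7 of 12 streak and nascent mesoderm genes tested were called higher and 0 lower, with a median log2 change of 1.03 against 0.00 over all genes, of which 17.6% were called. Among them were the Nodal antagonist Lefty2 (log2 change 2.43), Nodal itself (1.48), the Wnt-induced Sp5 (1.41) and the epithelial to mesenchymal factor Snai1 (0.84). The 12 genes summed to 101 CPM in NPC-ΔZF1 and 45.5 to 71.2 in NPC-WT, below the 636 to 764 of the ESC rescue groups. Means of Lefty2, Nodal and Sp5 were 18.2, 34.5 and 6.75 CPM in NPC-ΔZF1 against 42.3, 59.3 and 15.8 in ESC-ΔZF1. The sums do not stand for each gene. Between NPC-ΔZF1 and ESC-ΔZF1, 4 of the 12 were called higher, including Wnt3 (log2 change 3.76) and Snai1 (2.01). In that comparison 6 were called lower, including Tdgf1 (-5.92), beside 37.3% of all genes called. Of the 10 caudal epiblast and axial progenitor genes, 6 were higher and 0 lower, including the axial progenitor factor Nkx1-2 (2.53), Fgf17 (1.63), Hoxb1 (1.44) and the retinoic acid-degrading enzyme Cyp26a1 (1.18). The 10 summed to 157 to 158 CPM in NPC-ΔZF1, 98.7 to 100 in NPC-WT and 54.5 to 61.3 in the ESC rescue groups. Nkx1-2 had a mean of 5.51 CPM in NPC-ΔZF1, below its 10.8 in ESC-ΔZF1. Of 8 presomitic and paraxial genes, 5 were higher and 0 lower, and Meox1, a factor of the somites, rose by 1.03. Of 13 lateral plate, limb and heart genes, 5 were higher, among them Gata6 (3.12), Pdgfra (2.65) and Gata4 (2.45), which primitive endoderm also expresses, and 1, Wt1, was lower (-1.07). Of 12 blood and endothelial genes, Runx1 was higher (2.26) and Gata2 lower (-1.21), a share near that of all genes. Of 12 Wnt/beta-catenin targets, a list that also holds T, Cdx1 and Cdx2, 4 were higher, including Cdx1 itself, Sp5, counted above, and Lef1 (0.86), and Tcf7 was lower (-1.03). Among 12 T-box genes, which include members too, Eomes was higher and 2 were lower, including Tbx4 (-1.05). All these calls are at an edgeR adjusted p of at most 0.05. They come from the main fit, which does not take out the shift of chromosome 11 given above (median log2 change -0.566).

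In Grb10 pA against E14 WT NPCs, the calls in the streak, caudal, presomitic, lateral plate and Wnt lists were all lower. Of the 10 caudal genes, 0 were higher and 6 lower, with a median log2 change of -0.90 against 0.01 over all genes, of which 16.5% were called. These were Nkx1-2 (-3.47), Wnt3a (-3.20), Cdx4 (-1.71), Wnt8a (-1.43), Hoxb1 (-0.96) and Cyp26a1 (-0.78), all but Cyp26a1 from low counts and named after their values were seen. Of 5 presomitic genes, 3 were lower, including Meox1 (-1.72) and Tcf15 (-0.83). Of 8 lateral plate genes, Wt1 (-1.0), Gata6 (-0.88) and Pdgfra (-0.51) were lower, and of 9 streak genes 1, Lefty2 (-0.97), a share below that of all genes. Of 6 blood and endothelial genes, 1 was lower. Of 11 Wnt/beta-catenin targets, 5 were lower and 0 higher, with Lef1 at -0.86, and these 5 include Cdx2 itself and Cdx4, counted above. Of 6 T-box genes, 1 was called, Eomes itself, which was higher. Trophoblast markers were called in both directions, 2 of 10 higher, Krt18 (0.58) among them, and 1 lower. In Podxl pA against E14 WT NPCs, where 0.55% of genes were called, 3 of 8 lateral plate genes were higher. These were Pdgfra (0.80), Gata4 (0.72) and Tbx3 (0.72), which is also in the T-box list. Of 5 presomitic genes, Meox1 was lower (-1.13). The streak, caudal, blood and Wnt lists had 0 calls there.

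**Figure D4:**
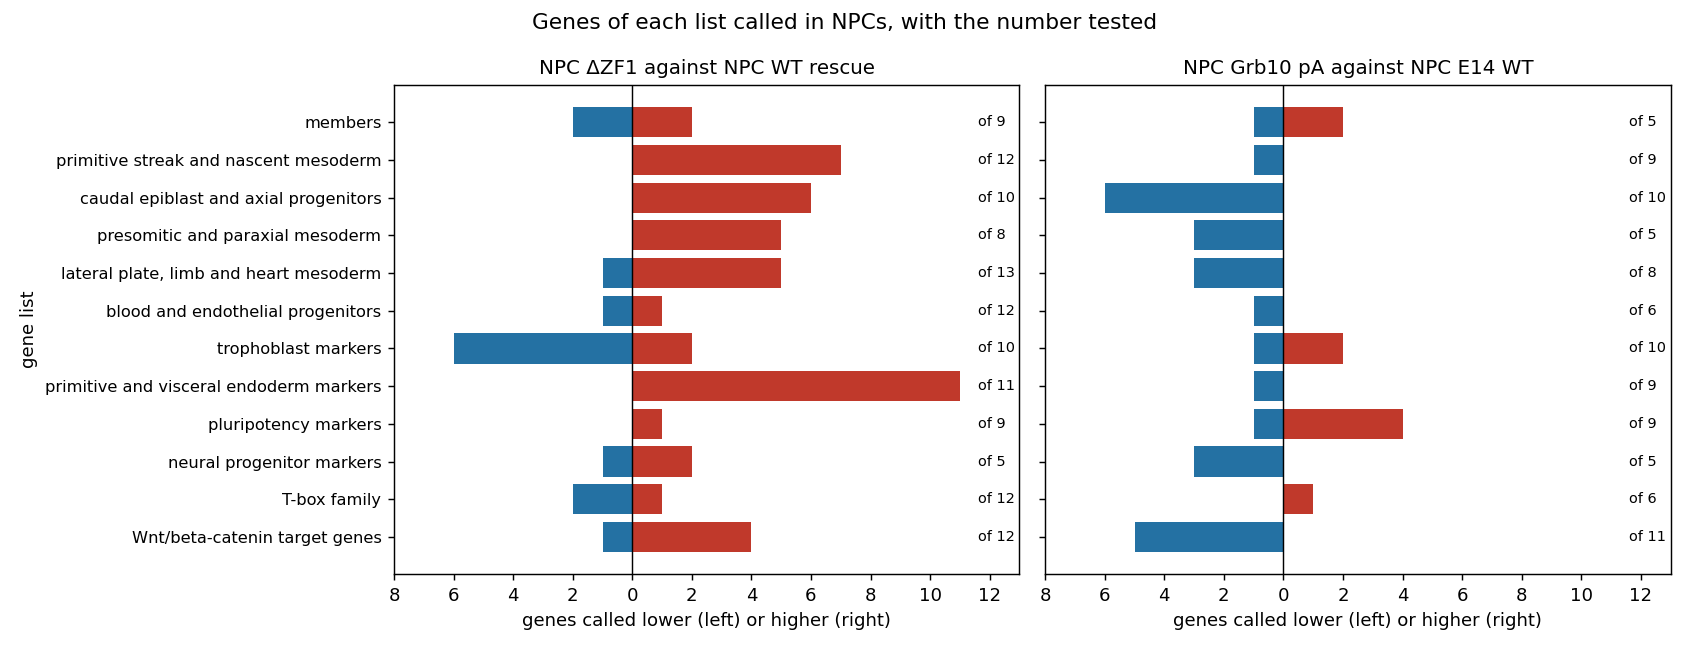
Number of genes of each list called lower (blue, left) or higher (red, right) in NPC-ΔZF1 against NPC-WT and in Grb10 pA against E14 WT NPCs, with the number tested at the right. Caudal genes are higher for 6 of 10 in the left panel and lower for 6 of 10 in the right panel.

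Markers of other lineages moved in the same libraries. In NPC-ΔZF1, all 11 primitive and visceral endoderm markers tested were called higher than in NPC-WT, with a median log2 change of 2.95. In this comparison 17.6% of all genes were called. Their sum over the 13 listed genes was 4050 to 4210 CPM in NPC-ΔZF1, 702 to 770 in NPC-WT, and 215 to 314 in the ESC rescue groups, and no marker of the list was at 0 in NPC-ΔZF1. Of 10 trophoblast markers tested, 6 were lower and 2 higher in NPC-ΔZF1 than in NPC-WT. The sum of the 12 listed ones was 3030 to 4400 CPM in NPC-WT, 1310 to 1370 in NPC-ΔZF1 and 224 to 304 in the ESC rescue groups. In NPC-WT the keratins Krt18 (1670 to 2580 CPM) and Krt8 (967 to 1390 CPM) made up most of this sum. Between NPC-WT and ESC-WT, 8 of the 10 markers tested were called higher and 1 lower, beside 41.9% of all genes, with a median log2 change of 4.18. The 4 largest rises were those of Krt18 (log2 change 4.96), Krt8 (4.89), Krt7 (4.88) and Gata3 (4.40). Named beyond these 4, Gcm1 (4.23) and Ascl2 (4.12) were also higher. Prl3d1 was at 0 in all libraries, and Elf5 stood at 0.148 CPM in NPC-WT and 0.196 in NPC-ΔZF1 (means, n = 2). In NPCs of the truncation table the trophoblast sum was 151 to 204 CPM in every group and the endoderm sum 853 to 1140 CPM in E14 WT, 1670 to 1790 in Podxl pA and 797 to 969 in Grb10 pA, where Cer1 was at 0. Of 9 endoderm markers tested, 5 were called higher in Podxl pA than in E14 WT NPCs and 0 lower, beside 0.55% of genes. Dab2 (log2 change 1.04) was among them. The neural list, in which Hes5 and Olig2 were at 0 in Grb10 pA NPCs, summed to 64.1 to 71.3 CPM there against 137 to 151 in E14 WT NPCs, with 3 of 5 lower and Sox1 at -1.66. The pluripotency list summed to 943 to 1020 CPM in Grb10 pA NPCs against 734 to 872, with 4 of 9 higher and 1 lower. Between Grb10 pA and E14 WT NPCs, 16.5% of all genes were called. The list calls in this comparison do not take out the shift of chromosome 8 given above (median log2 change -0.482). The part of these other cells in the values of Eomes, Hand1, Kdr, Cdx1 and Cdx2 was not tested.

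For the 4 members whose mean normalized count was 50 or more, the genes with the most similar pattern were sought by Pearson's r of log2 CPM over the 26 libraries, after subtraction of the mean of each experiment, among 13226 genes. The libraries share cell states and depth, so r is a description. Hand1 was nearest to Gbp2 (r = 0.978), Gata3 (0.972) and Amotl2 (0.969). Cdx1 was nearest to Cdkn1a (0.977), Tead4 (0.976) and Myof (0.975). Eomes was nearest to Gm43805 (0.893), Rbpms2 (0.885) and Ermp1 (0.861), and Cdx2 to Lrrc14 (0.880), Dnajc5 (0.877) and Zfp703 (0.858).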

How the data were processed

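RNA-seq counts of 26 libraries in 10 groups were used. The authors depleted rRNA, aligned reads to mm10 with STAR, and counted them on genes with featureCounts without strand. The deposited files hold raw counts. The gene annotation and tool versions are not given in the sources used here. The truncation table held 3 further columns that match no sample, which were not used.

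Tables were fitted separately in R 4.3.3 with edgeR 4.0.16 (TMM, filterByExpr, a mean per group, all libraries, quasi-likelihood F test). The filter left 16641 genes in the rescue table and 13268 in the truncation table. Calls needed an adjusted p no higher than 0.05 and a log2 fold change of 0.5 or more in either direction, the authors' cutoffs, in 14 comparisons. CPM are counts per 1000000 of the TMM-scaled library. Exon lengths and positions are from GENCODE M21 on GRCm38. A count of 0 was taken to allow 3 counts, and intervals cover counting error only. Overlap of libraries between groups was examined for the members only, so its share over all genes is not known. The study calls the replicates biological. Whether they are separate cultures is not stated, so p-values measure the spread between these samples. Alternatives were RLE, DESeq2 1.42.0, other filters, only the groups compared, a replicate block, chromosome medians in the offsets, and leaving out each library. They are given for the members only, not for genes of the other lists.

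All 10 members are named, though not with a value for every group. Of other lists, up to 4 called genes per comparison with the largest changes and a mean of at least 50 normalized counts are named. There are exceptions, not all of them marked. For each member at that mean, the 3 most correlated genes are given. The members and lists were chosen with earlier results of these data known.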

Additional observations from a re-analysis of the deposited data

Results flagged for a closer look

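The log2 change of Eomes between Grb10 pA and E14 WT differed between NPCs and ESCs by 1.26 (edgeR adjusted p = 0.000215). Eomes values were higher in 3 of 3 Grb10 pA NPC libraries than in any E14 WT NPC library and overlapped in ESCs. The same test gave -3.68 for Cdx2 (edgeR adjusted p = 0.000157; -4.71 without replicate 3 of Grb10 pA NPCs), which was lower in 3 of 3 Grb10 pA NPC libraries and higher in 3 of 3 Grb10 pA ESC libraries than in every E14 WT library of that cell state, although the ESC difference was not called. Both were singled out because the difference between the cell states itself passed the test. The share of all genes with libraries separated in this way was not counted.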

How the results depend on the processing

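Of the 37 calls of a member in a comparison, 28 remained called in each alternative in which the member was fitted, and 0 changed sign. Those lost are given beside their values in the report. A single library left in a group is assumed to vary like the other groups, and the cause of changed calls was not tested. Low counts limit T, Mixl1, Mesp1, Tbx6, Foxf1 and Kdr, most of all in the truncation table.

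With at least 10 counts required in every library, fewer members were tested, and the number called was 3 for NPC-WT against ESC-WT, 4 for NPC-ΔZF1 against ESC-ΔZF1, 1 for Grb10 pA in NPCs, 0 for differentiation of E14 WT, 0 for Podxl pA, 1 for Grb10 pA, and 1 for the difference of the Grb10 pA effect. Without a filter, the difference of the ΔZF1 effect called 1, Hand1 (-1.94, edgeR adjusted p = 0.000218). When a library was left out, the number called ranged from 0 to 0 for ΔZF1 in ESCs, from 2 to 4 for ΔZF1 in NPCs (2 without either NPC-ΔZF1 library), from 4 to 6 for differentiation of ΔZF1 and from 0 to 2 for the difference of the ΔZF1 effect. Leaving out a library made Kdr (0.78, edgeR adjusted p = 0.0488, without NPC-WT replicate 1) and Tbx6 (1.37, edgeR adjusted p = 0.0459, without NPC-WT replicate 2) callable between NPC-WT and ESC-WT.

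Replicate numbers are not stated to mark a shared culture or day, and deviations of same-numbered libraries correlated between -0.205 and 0.128. With a replicate block, 2 members were called for ΔZF1 in ESCs, 4 in NPCs, and 3 for Grb10 pA in NPCs, the same numbers as without it, and it changed no call of a member. Mixl1 went from 0.03 to -0.03 in ESC-ΔZF1.

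The other changes of sign were of members not called. With chromosome medians in the offsets, T was at 0.00 for ΔZF1 in NPCs and -0.04 for Grb10 pA in ESCs, and without a filter Cdx1 was at 0.03 for the difference of the Grb10 pA effect. Over fits leaving out a library, log2 changes for ΔZF1 in ESCs ran from -0.23 to 0.29 (Mixl1), -0.35 to 1.74 (Hand1), -0.41 to 1.23 (Foxf1) and -0.21 to 0.22 (Kdr), and T for ΔZF1 in NPCs from -0.18 to 0.26. The difference of the ΔZF1 effect ran from -1.08 to 0.55 (Foxf1) and -0.22 to 0.59 (Cdx1). For Podxl pA in ESCs the ranges were -0.18 to 0.02 (Eomes), -0.07 to 0.11 (Cdx1) and -0.24 to 0.51 (Cdx2), and in NPCs -0.91 to 0.24 (T) and -0.61 to 0.11 (Cdx1). For Grb10 pA they were -0.13 to 0.18 (T, ESCs) and -0.08 to 0.69 (Cdx1, NPCs), and for differentiation of E14 WT -0.15 to 0.05 (Eomes). The difference of the Podxl pA effect ran from -0.23 to 2.28 (Hand1) and -0.63 to 0.10 (Cdx1), and that of the Grb10 pA effect from -0.35 to 0.41 (Cdx1).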
